A study of Rattus norvegicus with 10 samples.

Results

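The genes described here act in S phase and mitosis, the stages in which a cell copies its DNA and divides. The list holds 59 genes that were chosen for these roles, with earlier results of these data known. Of the 59, 52 had a probe set that the platform annotation pairs with a single gene symbol, out of 14217 genes measured in this way. The other 7 (Cdc6, Rrm2, Nek2, Kif4a, Tpx2, Anln and Ncapg) were not analysed here. RNA came from axons that grew out of rat dorsal root ganglia, where the cell bodies of sensory neurons lie, and was measured on 10 Affymetrix rat genome arrays. There were 5 arrays from embryos at embryonic day 16 and 5 from adults, called biological replicates in the labels. Explants of ganglia grew for 4 days in a chamber with compartments, and axons over 1 cm long were taken from the outer one. For strain, sex, adult age and pooling of animals, the sources used here give no statement. Values are deposited log2 intensities made with RMA (robust multi-array average), and a difference of 1 is a doubling.

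In a dividing cell, the MCM helicase is loaded at replication origins, Cdc45 activates it, and the sliding clamp Pcna holds the polymerases on DNA. Cyclins activate cyclin-dependent kinases, and Cdk1 with B-type cyclins starts mitosis. During mitosis, kinesins build the spindle and checkpoint kinases hold back the anaphase-promoting complex. Neurons have left the cell cycle, whereas Schwann cells, fibroblasts and macrophages of a ganglion culture can divide. Many genes of S phase are targets of E2F factors, and many genes of mitosis are controlled through CHR elements and CCAAT boxes in their promoters.

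Promoter sequences of RefSeq (GRCr8) were matched by symbol for 45 of the 52 measured genes, and the 250 bases before each start were searched on both strands. A CHR (TTTGAA or TTTAAA) was present in 27 of the 45 (60.0%), against 25.3% of all 27457 promoters. A CCAAT box (CCAAT) was present in 33 (73.3%, against 34.3%). An E2F motif (TTTCCCGC, TTTGGCGC, TTTCGCGC or TTTGCCGC) was present in 6 (13.3%, against 1.81%), which were Cdk1, Mcm2, Mcm5, Mcm6, Mcm7 and Tyms. Both a CHR and a CCAAT box were present in 22 (48.9%, against 8.88%). A match is a description of letters and not a bound site.

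The 5 promoters printed in full belong to a kinase of mitosis, an activator of the anaphase-promoting complex, a helicase subunit, and the 2 genes with the lowest adjusted p between stages, and were chosen after their values had been seen. Capitals mark the motif matches on either strand, and each sequence runs 5′ to 3′ on the strand of its gene up to the base before the start. Cdk1 lies at chr20:19265043-19265292 (plus strand), with CHR matches 72 and 16 bases before the start, CCAAT boxes at 210, 81 and 49, and an E2F motif at 133. Cdc20 lies at chr5:137255800-137256049 (minus strand), with a CHR match at 51 and CCAAT boxes at 86 and 41. Mcm5 lies at chr19:13488563-13488812 (plus strand), with CCAAT boxes at 137, 82 and 54 and E2F motifs at 213, 209 and 8, the first pair overlapping. Cks2 lies at chr17:13727520-13727769 (minus strand), with a CHR match at 19 and CCAAT boxes at 139, 96, 60 and 42. Gmnn lies at chr17:40729584-40729833 (plus strand) and has a single match, a CCAAT box at 39.
Cdk1: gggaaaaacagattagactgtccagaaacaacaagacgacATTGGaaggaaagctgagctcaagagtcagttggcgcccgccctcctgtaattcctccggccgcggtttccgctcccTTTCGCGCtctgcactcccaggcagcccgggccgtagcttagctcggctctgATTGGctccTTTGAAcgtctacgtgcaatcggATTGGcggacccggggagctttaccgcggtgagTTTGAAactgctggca
Cdc20: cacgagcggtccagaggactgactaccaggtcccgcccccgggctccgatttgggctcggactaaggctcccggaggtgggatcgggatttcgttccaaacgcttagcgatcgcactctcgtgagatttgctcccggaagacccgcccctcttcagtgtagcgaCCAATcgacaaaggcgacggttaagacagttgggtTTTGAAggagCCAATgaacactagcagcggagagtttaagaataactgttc
Mcm5: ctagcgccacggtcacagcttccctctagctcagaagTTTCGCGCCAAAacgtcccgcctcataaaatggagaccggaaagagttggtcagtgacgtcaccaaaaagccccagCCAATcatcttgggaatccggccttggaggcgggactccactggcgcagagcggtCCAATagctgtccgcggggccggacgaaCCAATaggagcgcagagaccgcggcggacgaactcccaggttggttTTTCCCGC
Cks2: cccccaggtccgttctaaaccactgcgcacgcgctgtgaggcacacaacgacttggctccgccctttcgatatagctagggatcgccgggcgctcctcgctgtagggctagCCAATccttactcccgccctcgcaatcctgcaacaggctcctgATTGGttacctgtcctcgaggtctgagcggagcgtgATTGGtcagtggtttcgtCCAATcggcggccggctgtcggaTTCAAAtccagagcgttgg
Gmnn: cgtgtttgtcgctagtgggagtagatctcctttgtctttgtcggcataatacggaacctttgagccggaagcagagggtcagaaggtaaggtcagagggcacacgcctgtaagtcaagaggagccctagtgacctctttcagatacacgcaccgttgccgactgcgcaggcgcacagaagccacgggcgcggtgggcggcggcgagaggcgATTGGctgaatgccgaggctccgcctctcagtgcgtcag

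Between stages, 0 of the 52 genes passed an adjusted p of 0.05 by limma with Benjamini-Hochberg adjustment, against 1.26% of all genes (0.612% higher and 0.647% lower in adult axons). At an unadjusted p under 0.05, 7 were higher in adult axons (13.5%, against 6.28% of all genes) and 0 were lower (against 7.01%). The median log2 difference, adult minus embryonic, was 0.81 over the 52 and -0.00086 over all genes, and 46 of the 52 differences lay above 0. The differences ran from -0.68 for Cdk4 to 2.52 for Cks2. Only Gmnn had every adult value above every embryonic value (1 of 52, against 1.67% of all genes). Leaving out adult replicates 4 and 5, an alternative chosen after seeing the data, turned the median to -0.08. Fewer cells of a type and less RNA per cell cannot be told apart in these bulk samples.

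The genes were high on adult arrays 4 and 5 and not on the other 8 as a group. Their median level was 6.31 on adult array 4 and 5.88 on adult array 5, against 3.77, 3.33 and 3.26 on adult arrays 1 to 3 and 3.69, 3.81, 3.52, 3.78 and 3.49 on embryonic arrays 1 to 5. Within the array, that median stood at percentile 76.7 of all genes on adult array 4 and at percentile 72 on adult array 5, and between 42.9 and 54.5 on the other 8. Adult array 4 held the highest value of 37 genes (15.2% of all genes) and adult array 5 that of 10 (12.3%). These arrays held the 2 highest values of 32 of the 52, against 10% of all genes. The heatmap shows the same pattern gene by gene.

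**Figure D1:**
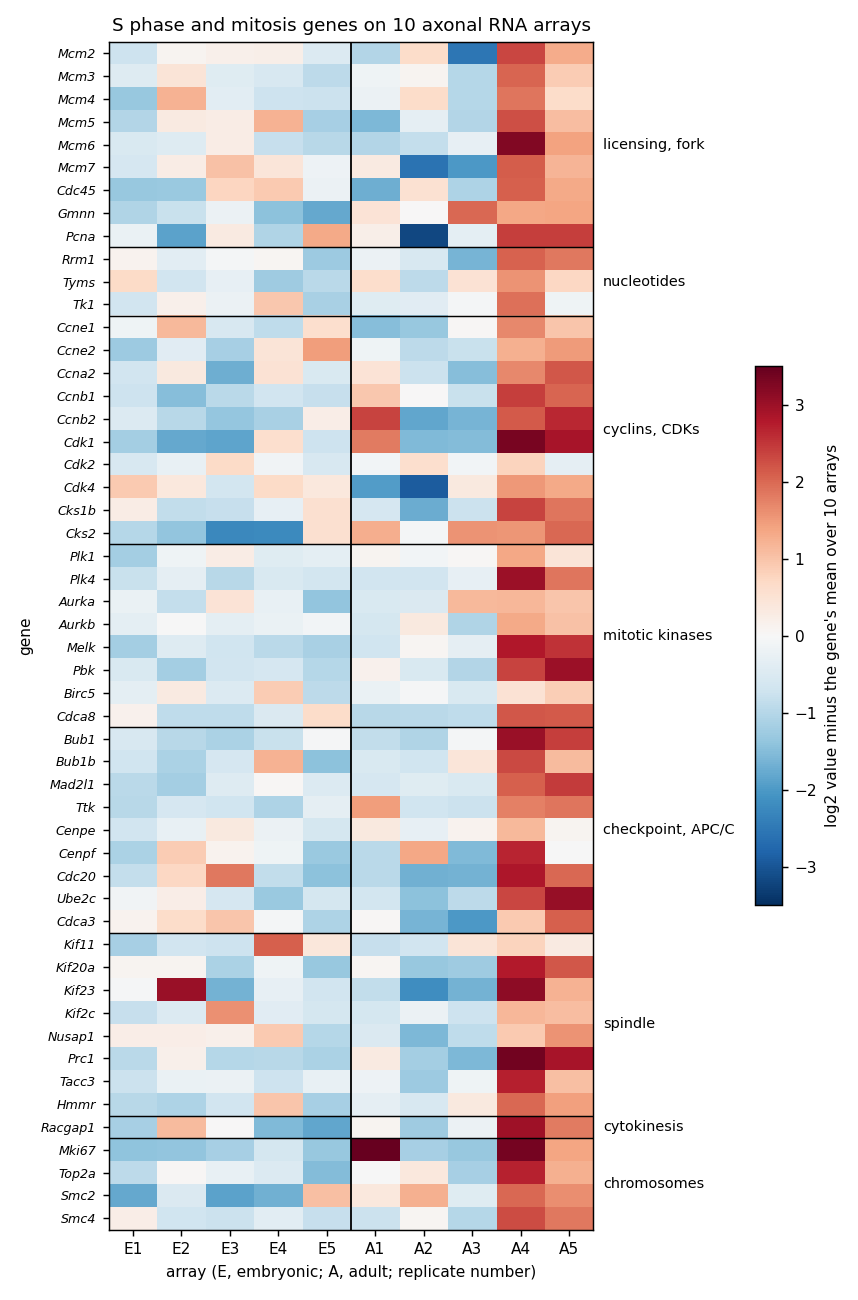
Level of each of the 52 measured genes on the 10 arrays, grouped by role, as log2 value minus the mean of that gene over the 10 arrays. Columns are embryonic replicates 1 to 5 (E) and adult replicates 1 to 5 (A). Adult replicates 4 and 5 hold the highest value of 37 and 10 of the 52 genes.

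A background level was set on each array from 95 genes of other tissues, such as liver and retina, as the 95th percentile of their 107 probe sets. That level was lower on adult arrays 4 and 5 than on every other array. On adult array 4 all 52 genes exceeded it and on adult array 5 51 did, the exception being Cdk2. On adult arrays 1 to 3 the count was 23, 14 and 17, and on embryonic arrays 1 to 5 it was 33, 32, 21, 22 and 25. The share of all genes above it was 63.3% and 65.9% on adult arrays 4 and 5 and between 37.6% and 62.3% on the others. On all 5 embryonic arrays, 12 of the 52 exceeded it (29.8% of all genes), and on all 5 adult arrays 7 did (22.7%). Mcm4, Pcna, Tk1 (thymidine kinase), Plk1 (a kinase of mitosis) and Top2a (a topoisomerase) exceeded it on all 10 arrays.

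Adult arrays 4 and 5 also had a wide spread of values. The SD of all values on an array was 1.95, 1.96, 2.07 and 2.06 on embryonic arrays 1 and 5 and adult arrays 4 and 5, and between 1.49 and 1.70 on the other 6, which are called narrow. Mean levels of hybridisation controls were 9.15 to 10.76 on the wide arrays and 11.63 to 12.83 on the narrow ones. Poly-A controls were at 1.89 to 2.58 in embryonic samples and at 7.86 to 12.02 in adult ones, lowest on adult array 5. The part of these properties in the results below was not tested. Because of the spread alone, the comparison was also made within each kind of array, a split that was known from earlier results of these data.

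Within the wide arrays (2 embryonic, 2 adult), all 52 differences lay above 0, with a median of 2.44 against 0.02 over all genes. The adult values lay above the embryonic ones without overlap in 50 of the 52 (against 26.7% of all genes), the exceptions being Ccne2, a cyclin of S phase entry, and Kif11, a spindle motor. At an unadjusted p under 0.05, 42 were higher (against 12.0%) and 0 lower (against 7.75%), and 0 passed after adjustment (against 0.00%). The 2 adult arrays here were adult arrays 4 and 5, so these counts restate the high values already described for them. Within the narrow arrays (3 embryonic, 3 adult), 20 differences lay above 0 and 32 below, with a median of -0.23 against -0.05 over all genes. There, 3 genes were higher (against 5.06%) and 5 lower (against 9.45%) at an unadjusted p under 0.05, and 0 passed after adjustment (against 1.18%).

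The stage difference on wide arrays minus that on narrow arrays, tested as an interaction, lay above 0 for 51 of the 52 genes, Cks2 being the exception, with a median of 2.56 against 0.11 over all genes. At an unadjusted p under 0.05 it was above 0 in 36 (against 9.40%) and below 0 in 0 (against 3.46%). The wide adult arrays were again adult arrays 4 and 5, where the genes were high together. These counts and the adjusted p values below are therefore not separate support for that pattern. Melk, a kinase of dividing cells, passed after adjustment (1 of 52, against 0.0914%), with 3.45 ± 0.44 (SE) and an adjusted p of 0.048. That call was lost when any 1 of the 10 arrays was left out. The next lowest adjusted p values were 0.078 for Mcm5 (4.32 ± 0.72), 0.088 for Plk4, the kinase of centriole duplication (3.08 ± 0.54), and 0.093 for both the checkpoint gene Mad2l1 (2.98 ± 0.54) and Cdc20 (5.54 ± 1.00).

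**Figure D2:**
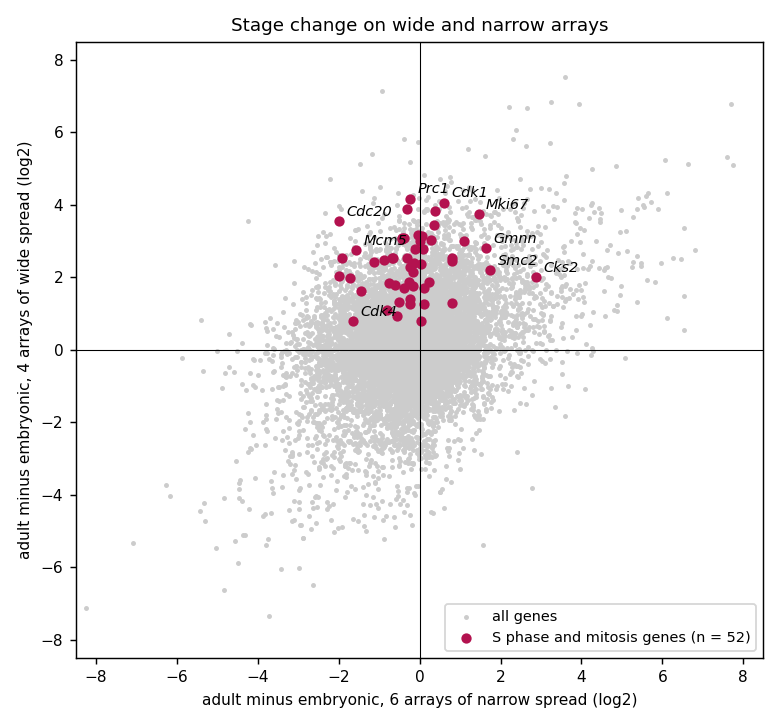
Log2 difference, adult minus embryonic, on the 4 wide arrays (vertical axis) against that on the 6 narrow arrays (horizontal axis); coloured points are the 52 genes, and grey points are all genes measured. The 52 genes lie above 0 on the vertical axis, between 0.78 and 4.17, and on both sides of 0 on the horizontal axis, between -1.99 and 2.87.

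Of the genes of replication licensing, 9 were measured and 8 of their differences lay above 0, with medians of 2.43 on wide and -0.38 on narrow arrays. Pcna read 7.46, 5.82, 8.01, 6.63 and 9.0 on embryonic arrays 1 to 5 and 7.88, 4.49, 7.33, 10.12 and 10.10 on adult arrays 1 to 5. Adult arrays 4 and 5 were the highest and adult array 2 the lowest, and the stages overlapped (0.60 ± 1.03 SE, adjusted p 0.95). Mcm2, a subunit of the helicase, read 5.01, 5.84, 5.91, 5.93 and 5.25 in embryonic axons and 4.70, 6.37, 3.19, 8.07 and 7.04 in adult axons, listed by replicate number as are all values that follow. Its embryonic arrays lay close together (SD 0.43, n = 5), while its adult arrays ran over a wider range (SD 1.94, n = 5). The difference was 0.29 ± 0.79 over 10 arrays and -0.83 without adult replicates 4 and 5.

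Mcm4, another subunit, read 3.92, 6.46, 4.90, 4.54 and 4.52 in embryonic and 5.05, 5.91, 4.26, 7.12 and 5.91 in adult axons, with embryonic array 2 above 4 of the 5 adult arrays (0.78 ± 0.58, adjusted p 0.78). For Mcm7 the values were 5.50, 6.34, 7.12, 6.52 and 5.92 in embryonic and 6.41, 3.51, 4.09, 8.21 and 7.29 in adult axons. Adult arrays 2 and 3 lay below every embryonic value and adult arrays 4 and 5 above every one, and the difference was -0.37 ± 0.84. Cdc45 read 3.92, 3.97, 6.02, 6.17 and 5.06 in embryonic and 3.54, 5.80, 4.18, 7.36 and 6.57 in adult axons, with adult arrays 4 and 5 above every embryonic value and the other 3 adult arrays within or below their range (0.46 ± 0.77), and -0.52 without adult replicates 4 and 5. A probe set of Cdc45 without shared sequence gave 0.03 ± 0.28 but was above background on 0 of 10 arrays. Another without shared sequence gave 0.23 ± 0.55 and was above background on 2 of 10 arrays. It was at 4.99 and 3.68 on adult arrays 4 and 5 and at or below 3.26 on the other 8. A second probe set of shared sequence, above background on all 10 arrays, gave 0.61 ± 0.70. Mcm3, Mcm5 and Mcm6 had differences between 0.16 and 1.00, and each was highest on adult array 4.

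Gmnn encodes geminin, which blocks a repeated loading of the helicase. It read 3.36, 3.65, 4.23, 3.00 and 2.64 in embryonic axons (mean 3.38 ± 0.61 SD, n = 5) and 4.91, 4.45, 6.43, 5.78 and 5.81 in adult axons (5.48 ± 0.79, n = 5). All 5 adult values lay above the highest embryonic one, and its highest value was on adult array 3, a narrow array. The difference of 2.10 ± 0.43 (SE) missed the threshold at an adjusted p of 0.052 (range over alternatives 0.031 to 0.41). A second probe set of the gene was above background on 0 of 10 arrays, and with the mean of both the difference was 1.07. In the supply of nucleotides, Rrm1, Tyms and Tk1 had differences of 0.36 to 1.00, and 0 of 3 passed.

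**Figure D3:**
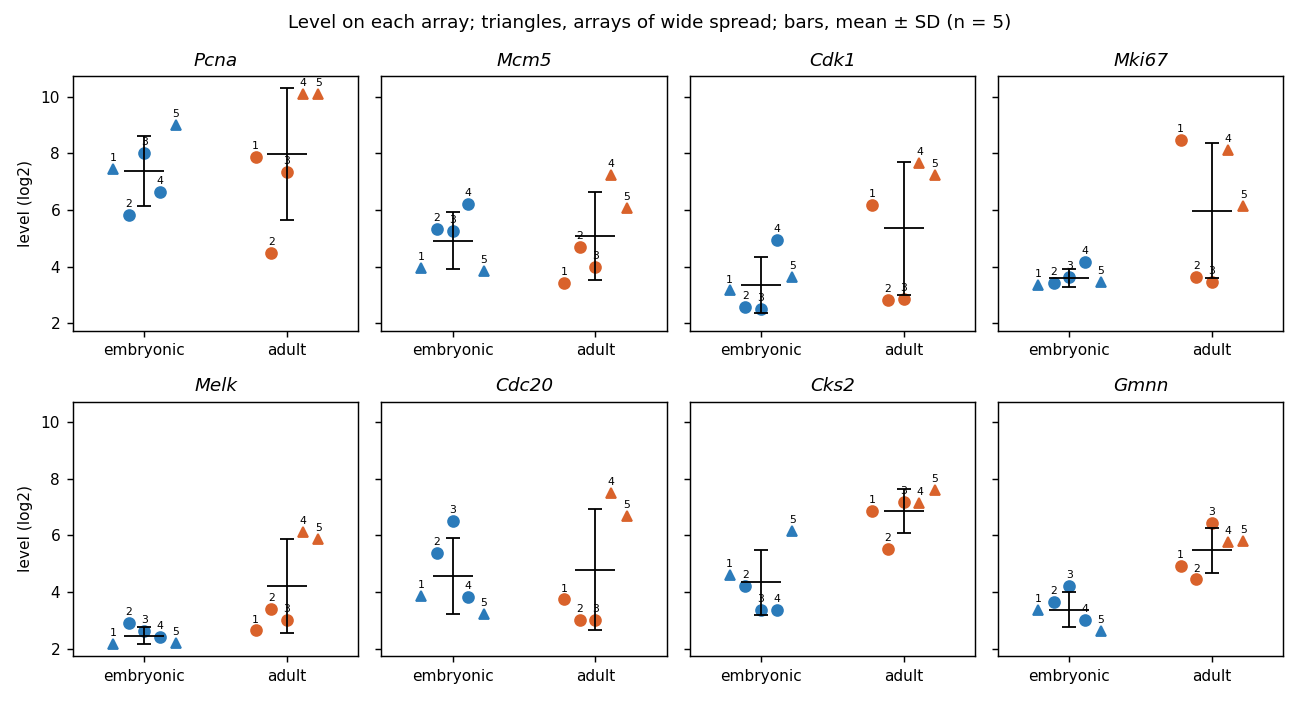
Log2 level of 8 genes on each array (points; triangles are the arrays of wide spread) in embryonic and adult axons, with the mean and SD over 5 arrays per stage. Melk stands apart on adult replicates 4 and 5, Mki67 and Cdk1 are high there and on adult replicate 1, and all 5 adult values of Gmnn lie above its embryonic values.

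Among cyclins, cyclin-dependent kinases and their subunits, 10 genes were measured, 8 differences lay above 0, and 0 passed. Cks2, a small subunit bound to these kinases, read 4.59, 4.23, 3.35, 3.37 and 6.16 in embryonic axons (mean 4.34 ± 1.15 SD, n = 5) and 6.88, 5.52, 7.17, 7.15 and 7.60 in adult axons (6.86 ± 0.79, n = 5). The stages overlapped only through embryonic array 5, which lay above adult array 2. Its difference was 2.52 ± 0.57 (SE) at an adjusted p of 0.079, and it passed at 0.027 without embryonic replicate 5 (range over alternatives 0.025 to 0.31). On narrow arrays alone the difference was 2.87, and on wide arrays 2.00.

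Cdk1 read 3.16, 2.56, 2.52, 4.93 and 3.64 in embryonic and 6.18, 2.82, 2.85, 7.68 and 7.23 in adult axons. Adult arrays 1, 4 and 5 lay above all embryonic arrays and adult arrays 2 and 3 within their range (1.99 ± 1.01, adjusted p 0.58). Its partner cyclin B1, Ccnb1, read 3.34, 2.57, 3.12, 3.40 and 3.27 and 5.00, 4.07, 3.28, 6.49 and 6.09, respectively, with adult array 3 within the embryonic range (1.85 ± 0.56, adjusted p 0.22). A second probe set of Ccnb1 differed by 1.16 ± 0.88. Ccnb2, the other B-type cyclin, was at 6.80, 6.56 and 7.08 on adult arrays 1, 4 and 5 and at or below 4.65 on the other 7.

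Cdk4, a kinase of G1 that cells at rest also express, read 7.73, 7.18, 6.18, 7.50 and 7.19 in embryonic and 4.85, 3.91, 7.15, 8.34 and 8.15 in adult axons. Adult arrays 1 and 2 lay below every embryonic value and adult arrays 4 and 5 above every one, and its difference of -0.68 ± 0.82 was the lowest of the 52 (adjusted p 0.91). Cdk2, by contrast, ran over only 1.33 from lowest to highest array and exceeded background on adult array 4 alone. It counted as above at 3.87 there and as below at 3.77 on embryonic array 3 and 3.69 on adult array 2. The background level was lower on adult array 4 than on those arrays, so this count does not separate their levels of Cdk2. The other cyclins and subunits (Ccne1, Ccne2, Ccna2 and Cks1b) had differences between -0.05 and 0.83.

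Of 8 measured mitotic kinases and proteins of the chromosomal passenger complex, all 8 differences lay above 0 and 0 passed. Melk read 2.15, 2.90, 2.64, 2.41 and 2.21 in embryonic axons and 2.64, 3.42, 3.02, 6.13 and 5.88 in adult axons. Only adult arrays 4 and 5 exceeded background for Melk, and the other 8 arrays lay between 2.15 and 3.42 (1.76 ± 0.68, adjusted p 0.38). Pbk, a kinase active in mitosis, read 3.18, 2.52, 3.05, 3.12 and 2.72 and 3.86, 3.19, 2.69, 6.09 and 6.71, respectively, and was likewise above background on adult arrays 4 and 5 alone (1.59 ± 0.72, adjusted p 0.51). Plk4 showed the same order, with 5.89 and 4.76 on those arrays and at most 2.60 on the other 8. Plk1, Aurka, Aurkb, Birc5 and Cdca8 had differences from 0.22 to 0.89.

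Of 9 genes of the spindle checkpoint, the kinetochore and the anaphase-promoting complex, 8 differences lay above 0 and 0 passed, with medians of 2.79 on wide and -0.12 on narrow arrays. Each of the 9 exceeded background on adult arrays 4 and 5, while 2, 1 and 0 of them did on adult arrays 1 to 3. On embryonic arrays 1 to 5 the count was 4, 4, 3, 3 and 2. The background level was lower on adult arrays 4 and 5 than on adult arrays 1 to 3. Cenpe thus counted as above at 3.26 on adult array 5 and as below at 3.51 on adult array 1. The checkpoint kinase Bub1 was at 6.06 and 5.45 on adult arrays 4 and 5 and at or below 3.00 on the other 8. Cdc20, which activates the anaphase-promoting complex, was at 7.50 and 6.68 there, while embryonic arrays 2 and 3 stood at 5.39 and 6.51 and the other 6 between 3.00 and 3.85. This probe set of Cdc20 is of shared sequence. A further one, also of shared sequence, was above background on adult arrays 4 and 5 alone (1.10 ± 0.49). The remaining ones exceeded background on 1 array each. None of the further probe sets read above 3.26 on embryonic arrays 2 and 3. The checkpoint kinase Ttk was at 4.62, 4.93 and 5.03 on adult arrays 1, 4 and 5 and at or below 2.85 on the rest (1.46 ± 0.56, adjusted p 0.38).

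For spindle motors and microtubule-bound proteins, 8 genes were measured, with 6 differences above 0. Prc1, which bundles microtubules of the central spindle, read 3.58, 4.72, 3.55, 3.56 and 3.42 in embryonic and 4.84, 3.35, 2.95, 7.92 and 7.42 in adult axons. Adult arrays 4 and 5 stood far above the other 8 (1.53 ± 0.92, adjusted p 0.69), and without them the difference was -0.05. Kif23, a motor of the central spindle, read 4.56, 7.62, 2.93, 4.30 and 3.92 and 3.73, 2.43, 2.95, 7.74 and 5.81, respectively. Embryonic array 2 came close to the highest value, on adult array 4, and the difference was -0.13 ± 1.10, or 0.61 without embryonic replicate 2. A second probe set of Kif23, above background on 1 array, did not show this order. It was at 3.30 on embryonic array 2 and 2.56 on adult array 4, with a difference of -0.37 ± 0.24. Racgap1, the partner of Kif23 in cytokinesis, read 3.19, 5.46, 4.37, 2.80 and 2.53 in embryonic and 4.45, 3.12, 4.14, 7.31 and 6.17 in adult axons, with embryonic array 2 above adult arrays 1 to 3 (1.37 ± 0.82, adjusted p 0.69). Kif11 and Kif2c were highest on an embryonic array, 5.72 on embryonic array 4 and 5.18 on embryonic array 3.

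All 4 genes of chromosome structure had differences above 0. Mki67, which encodes the proliferation antigen Ki-67, read 3.37, 3.41, 3.62, 4.16 and 3.45 in embryonic axons (mean 3.60 ± 0.33 SD, n = 5) and 8.48, 3.63, 3.46, 8.13 and 6.16 in adult axons (5.97 ± 2.39, n = 5). Adult arrays 1, 4 and 5 were high and adult arrays 2 and 3 lay within the embryonic range, and the difference of 2.37 ± 0.95 (SE) had an adjusted p of 0.41. Top2a read 4.59, 5.56, 5.25, 5.03 and 4.00 and 5.51, 5.88, 4.36, 8.20 and 6.75, respectively, with overlap on adult arrays 1 and 3 (1.25 ± 0.63, adjusted p 0.57). Smc2, a subunit of condensin, read 1.65, 2.92, 1.57, 1.74 and 4.48 in embryonic and 3.79, 4.67, 3.02, 5.45 and 5.06 in adult axons, and embryonic array 5 alone overlapped the adult values, lying above adult arrays 1 and 3 (1.93 ± 0.64, adjusted p 0.28). Smc4, its partner, was at 5.38 and 4.95 on adult arrays 4 and 5 and at or below 3.34 on the other 8. A second probe set of Smc4 did not show this order. It was at 2.68 and 2.73 on adult arrays 4 and 5 and at 4.72 on adult array 1, where alone it exceeded background. Its stage difference was 0.92 ± 0.42, against 0.97 ± 0.63 for the first probe set.

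Other genes of these pathways were taken from lists set by role, with earlier results of these data known. Of genes of the replication fork and origin, 35 of 39 were measured and 0 passed, with median differences of 0.47 over all arrays, 1.49 on wide and -0.07 on narrow arrays. Their largest differences were 2.89 ± 1.04 for the polymerase subunit Pold3 (adjusted p 0.33) and 1.61 ± 0.87 for the chromatin assembly factor Chaf1a (adjusted p 0.63). Of further genes of mitosis and cytokinesis, 60 of 68 were measured and 0 passed, with medians of 0.47, 1.18 and -0.19. Smc3, a cohesin subunit (1.90 ± 0.79), and Kifc1, a minus-end motor (1.86 ± 0.69), had the largest differences. Of genes of G1 control and cell cycle inhibition, 33 of 37 were measured, and 1 passed, against 1.26% of all genes. Cyclin D2, Ccnd2, fell by 3.26 ± 0.57 on the log2 scale in adult axons (adjusted p 0.025), from 7.17 to 9.72 on the embryonic arrays to 3.57 to 5.75 on the adult arrays, with no overlap.

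Markers of cells that a ganglion culture could hold were read on the same arrays, and their part in the results above was not tested. Fibroblast markers (20 of 20 measured) had mean levels of 6.16 and 5.84 on adult arrays 4 and 5, against 3.74 to 4.87 on adult arrays 1 to 3 and 3.82 to 5.38 on embryonic arrays, and 18 and 17 of the 20 exceeded background there, against 3 to 17 on the others. S100a4, a calcium-binding protein of fibroblasts that leucocytes also make, passed between stages (2.64 ± 0.49, adjusted p 0.038). It was the only 1 of the 20 to pass, against 1.26% of all genes. Lum, a matrix proteoglycan, was at 9.28 and 8.94 on adult arrays 4 and 5 and at or below 5.29 on the other 8. Dcn, another, was at 10.84 and 10.21 there and also at 9.30 on adult array 3, whereas the collagen gene Col1a1 was at 4.54 and 4.64 there and at 8.85 on embryonic array 4. Macrophage and leucocyte markers (25 of 26 measured) were high on all adult arrays, with mean levels of 6.58 to 8.23 against 3.58 to 5.88 on embryonic arrays. Of the 25, 13 passed as higher in adult axons, against 0.612% of all genes.

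Schwann cell markers (16 of 19 measured) had mean levels of 4.00 on adult array 4 and 5.81 on adult array 5, against 4.16 to 4.84 on the other 8, and 7 and 13 of the 16 exceeded background, against 7 to 10. Their regulator Sox10 was at 2.65 on adult array 4, below background, and at 5.85 on adult array 5. Satellite glia markers (11 measured) had mean levels of 6.31 and 6.93 on adult arrays 4 and 5 and 4.76 to 5.95 on the others. Their medians were 5.18 on adult array 4 and 7.48 on adult array 5, against 3.51 to 5.79 on the others. On adult arrays 4 and 5, 9 of the 11 exceeded background, against 5 to 9 on the others. T and B lymphocyte markers (12 of 14 measured) had mean levels of 2.59 to 3.40, and at most 3 exceeded background on any array. Endothelial markers (10 of 12 measured) had means of 2.80 to 3.71 and erythroid markers (9 of 12 measured) of 2.55 to 4.86, erythroid markers being lowest on adult arrays 4 and 5. Sensory neuron markers (19 of 20 measured), the labelled cell type, had means of 6.33 to 8.82 on embryonic and 4.90 to 6.59 on adult arrays. Of the 19, 6 passed as lower in adult axons, against 0.647% of all genes. Background was exceeded by 15 to 19 of them on embryonic and 11 to 17 on adult arrays.

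**Figure D4:**
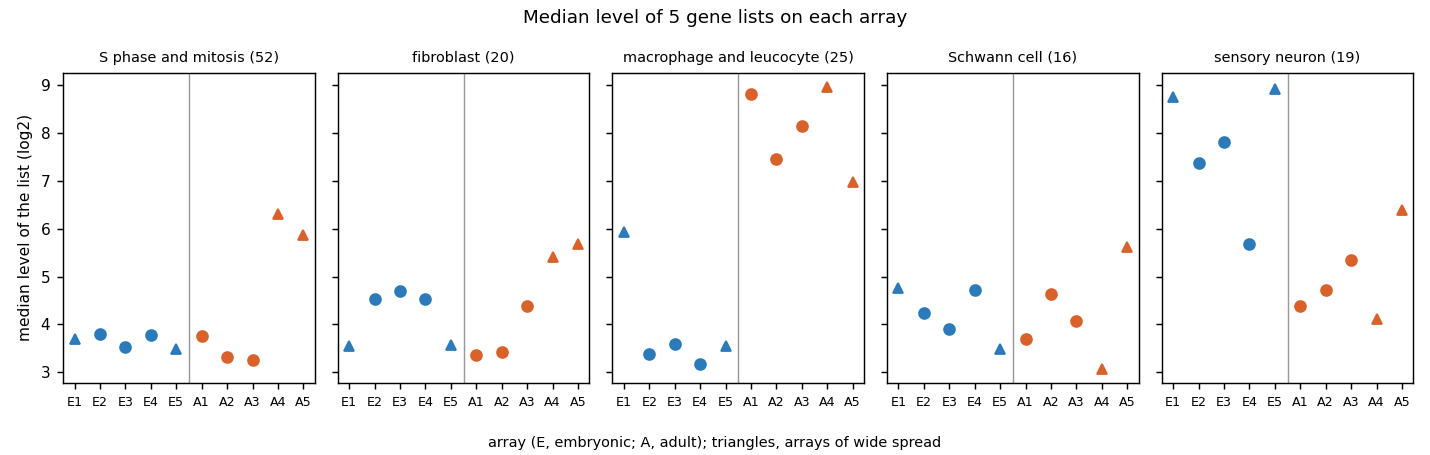
Median log2 level of the S phase and mitosis genes and of marker lists of other cell types on each of the 10 arrays (E, embryonic; A, adult; triangles mark arrays of wide spread). The S phase and mitosis genes and the fibroblast markers are highest on adult replicates 4 and 5, while macrophage markers are high on all 5 adult arrays.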

How the data were processed

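Log2 values were deposited by the authors, made with RMA per the submitters' processing notes. The sources used here name neither version nor options, and the base 2 was taken from the range of the values. The table has 31099 probe sets, 57 of them controls. The platform annotation gives 20826 probe sets a single symbol, 436 several, and 9780 are unnamed here. For each gene, the probe set of a single symbol whose mean over 10 arrays was highest was used, and 19 of the 52 genes had several. Stages were compared by a two-sided test with lmFit and eBayes (limma 3.58.1, R 4.3.3), with Benjamini-Hochberg adjustment over 31042 probe sets and a threshold of 0.05. Wide arrays had an SD of all values above 1.78, the middle of the range. The number of arrays limits the precision, and RMA compresses differences of weak probe sets. p-values set a difference in means against the spread between these samples.

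Values on every array are given for the 8 genes highest in mean, in absolute difference and in range, and for any gene called between stages. Further genes named with values were chosen after those were seen. The members and lists were chosen with earlier results of these data known. Alternatives were other scalings, a filter on weak probe sets, other variance models, array weights, array spread as a term, a replicate block, other probe set rules, other background levels and leaving out arrays. Replicate numbers did not pair the samples. The fit was tested on simulated data, whose settings and outcome are not given here and lend no weight to the results. Plots and motif searches used matplotlib 3.10.9 and pandas 2.3.3 under Python 3.11.15.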

Additional observations from a re-analysis of the deposited data

Results flagged for a closer look

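Prc1 was at 4.72 on embryonic array 2, far above the other 4 embryonic arrays by Dixon's test, with a gap of 0.875 of the range against a critical value of 0.71. Of 40 groups tested this was the only 1 past that value, and chance gives about 1 in 20. The stage difference of Melk was larger on wide than on narrow arrays by 3.45 (adjusted p 0.048 by limma's interaction test). The wide adult arrays were adult arrays 4 and 5, so this restates the high values of Melk there.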

How the results depend on the processing

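The count of the 52 genes called between stages, 0, became 1 with quantile scaling, cyclic loess, array weights and array spread as a term, and 2 with the filter on weak probe sets, and ran from 0 to 1 when 1 array was left out. The genes were Cks2 and Gmnn. The count over all genes, 179, became 313 with the filter, 276 with array spread as a term, 0 on wide arrays alone and 481 without adult replicates 4 and 5 (90 higher, 391 lower), and ran from 101 to 248 when 1 array was left out. The median difference was 2.44 on wide arrays and ran from 0.38 to 1.10 when 1 array was left out. The interaction count, 1, became 0 with quantile scaling, the filter, trend and robust variance and the mean of all probe sets, and fell to 0 when any 1 array was left out. The count above background fell from 12 to 7 on embryonic and from 7 to 3 on adult arrays at the 99th percentile. On adult arrays it was 16 where 4 of 5 arrays were required and 4 with the mean of all probe sets.

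Of the 52 differences, 22 changed sign without adult replicates 4 and 5, 6 on wide arrays alone, 26 on narrow arrays alone and 12 in at least 1 fit with a single array left out, and the cause was not tested. Among the 18 genes given by array, those that changed sign were as follows. Without adult replicates 4 and 5 the differences were -0.52 for Cdc45, -0.83 for Mcm2, -0.82 for Pcna and -0.052 for Prc1. On wide arrays alone they were 0.78 for Cdk4, 2.54 for Kif23 and 2.04 for Mcm7. On narrow arrays alone they were -0.88 for Cdc45, -1.14 for Mcm2, -0.23 for both Mcm4 and Prc1, -0.25 for Pcna, -0.31 for Racgap1 and -0.032 for Top2a. With 1 array left out, 4 of the 18 changed sign. Kif23 ran from -0.93 to 0.61 (above 0 without embryonic replicate 2 or adult replicate 1, 2 or 3), Mcm7 from -0.95 to 0.22 (above 0 without adult replicate 2 or 3), Cdc45 from -0.0064 to 0.95 (below 0 without adult replicate 4) and Mcm2 from -0.26 to 0.96 (below 0 without adult replicate 4 or 5).

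Replicate numbers did not pair the samples: deviations of same-numbered arrays correlated between -0.122 and 0.276. With the replicate block, 135 genes and 0 of the 52 were called, and the median difference was 0.81.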

Other observations

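Spc25, a kinetochore gene outside the 52, was named after its values were seen. It was at 7.22 and 6.64 on adult arrays 4 and 5 and at or below 4.31 on the other 8 (interaction adjusted p 0.041).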
